A study of Bos taurus with 6 samples.

Results

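The HOX cluster miRNAs of bovine cumulus cells were measured as 5 mature miRNAs of the count table, bta-miR-10a, bta-miR-10b, bta-miR-196a, bta-miR-196b and bta-miR-615, out of 956 mature and putative miRNAs in all. They were chosen by name, with the entries of a mature miRNA summed. The 5 names take 6 of the 1055 entries, since bta-miR-196a has 2, and each is listed as a single arm with no suffix. In the ovarian follicle the oocyte is wrapped in layers of cumulus cells, which are of somatic origin, and the unit of both is called a cumulus-oocyte complex (COC). Pieces of cumulus were taken from Bos taurus COCs of slaughterhouse ovaries after in vitro maturation with serum and follicle stimulating hormone, and were pooled by what became of the oocyte after exposure to sperm of a bull of proven fertility. Of the 6 libraries, 3 were made from cumulus whose oocyte failed to cleave (not cleaved, Samples A, B and C) and 3 from cumulus whose oocyte developed to a blastocyst (blastocyst, Samples D, E and F). Each pool mixes the cumulus of several COCs of an unselected population, so the spread below is between pools and not between animals or single complexes, and fewer cells of a type cannot be told apart from less RNA per cell.

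HOX genes encode homeodomain transcription factors that set position along the body axis, and in mammals they lie in 4 clusters, HOXA to HOXD. Several miRNA genes lie between or inside the HOX genes, are transcribed with the region around them, and repress HOX mRNAs among other targets. miR-10 and miR-196 are the ancient families of these clusters, whereas miR-615 is found in the HOXC cluster of mammals. Members of a family differ by about a single base in the mature sequence, and a read of one can therefore be hard to tell from a read of its relative.

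The placement of the genes was taken from the RefSeq annotation of assembly ARS-UCD2.0, in which all 6 precursors of the 5 miRNAs were found. MIR10B, the gene of miR-10b, lies within the span of HOXD4. MIR10A lies between HOXB5 and HOXB4, inside the annotated span of HOXB3. The 2 precursors of miR-196a are in different clusters: MIR196A-1 lies within the span of HOXB9, and MIR196A-2 lies between HOXC9 and HOXC10. MIR196B lies between HOXA10 and HOXA9, and MIR615 lies within the span of HOXC5. The table of genes used gives spans only, so exons, introns and UTRs were not separated, and since no source used here states the build behind the count table, coordinates were left out.

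Library totals ran from 2776256 to 8139237 counts. Samples B and E lay farthest from the others, with a mean correlation to them of 0.943 and 0.905 across the miRNAs with a mean of at least 50 counts, against 0.956 to 0.963 for the other libraries (miRNAs are not independent replicates), so results by fate are also given without them. The gonadal miR-202 ran from 6449 to 8454 CPM (counts per 1000000 counts of the library) in not-cleaved samples and from 5968 to 6685 in blastocyst samples. The 4 blood cell miRNAs looked for summed to at most 3.60 and 3.07 CPM, with miR-144 and miR-223 at 0 in every library, and the endothelial miR-126 to at most 4.32 and 3.10. Summed over 3 muscle miRNAs, not-cleaved samples had 4.45 to 4.91 CPM and blastocyst samples 9.95 to 43.7, and over 4 epithelial miRNAs they had 212.1 to 243.0 and 152.1 to 207.5. The groups did not overlap in these muscle and epithelial sums. Of the 316 single miRNAs tested by fate below, 7 (2.22%) did not overlap in CPM with blastocyst samples higher. The share with blastocyst samples lower was not counted. The muscle sum was nearly all miR-1, since miR-133a had at most 1 count in a library and miR-206 had 8 counts in Sample D and 0 elsewhere. The epithelial sum was mostly miR-200b and miR-200a, while miR-200c and miR-141 were highest in the blastocyst Sample E (30 and 17 counts). The theca and stroma list (101 to 202 CPM and 131 to 185) did overlap. So did the early embryo list (0 to 5.09 CPM and 0.123 to 8.17), in which miR-371 had 33 counts in Sample A and 29 in Sample E.

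miR-10b, encoded in the HOXD cluster, was by far the most abundant HOX miRNA. In CPM it was at 11440, 11549 and 9674 in the not-cleaved Samples A, B and C, and 12436, 13470 and 13512 in the blastocyst Samples D, E and F, from 32064 to 101217 counts. All 6 libraries thus held it at a similar level, with a mean of 12014 ± 1453 CPM (SD, n = 6). It took 99.3% to 99.6% of the counts of the 5 HOX miRNAs in a library and 0.967% to 1.35% of all counts. By mean CPM it ranked 10th of 583 mature and putative miRNAs with any count. Its neighbours in that order, miR-26a (13535 ± 2919 CPM, SD, n = 6) and miR-320a (11608 ± 1575 CPM, SD, n = 6), differed from it by less than their own SD. Its coefficient of variation over the libraries was 12.1%, and 15 of the 316 miRNAs that passed the expression filter had a lower one. The median of the 316 was 29.1%. Many of these have far fewer counts than miR-10b, and counting error alone widens the spread of such miRNAs. The ranking was not limited to miRNAs of like abundance.

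miR-196a, which has precursors in the HOXB and HOXC clusters, had 108 to 295 counts in a library. Its CPM, both entries summed, was 22.1, 38.9 and 36.0 in the not-cleaved Samples A, B and C, and 36.2, 47.0 and 43.5 in the blastocyst Samples D, E and F. The sources used here do not state how reads that match both entries were counted. If they were counted at each entry, the sum and its rank are too high. Sample A was the lowest, and its Wilson 95% interval (19.1 to 25.7 CPM) lay below those of the other 5. Intervals cover counting error only, because PCR copies of a molecule cannot be told apart in these counts. The mean was 37.3 ± 8.59 CPM (SD, n = 6), rank 165 of 583. It lay between miR-424-3p (38.8 ± 15.3 CPM, SD, n = 6) and miR-378c (36.5 ± 9.85 CPM, SD, n = 6), which it did not differ from beyond the spread.

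miR-10a, the HOXB relative of miR-10b, was at 25.9 CPM, 29.2 and 18.2 in the not-cleaved Samples A, B and C, and 24.0, 36.3 and 50.3 in the blastocyst Samples D, E and F. Sample F stood highest, and its interval (43.6 to 58.0 CPM) lay above those of the other 5. The mean was 30.6 ± 11.3 CPM (SD, n = 6), rank 177 of 583, between miR-2478 (31.8 ± 14.3 CPM, SD, n = 6) and miR-574 (30.6 ± 7.26 CPM, SD, n = 6). The coefficient of variation was 36.9% for miR-10a and 23.0% for miR-196a, so miR-10a lay above and miR-196a below the median of all tested miRNAs.

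The other members were at or under the limit of detection. miR-196b, from the HOXA cluster, had 2 counts in Samples A and F and 1 in each of the others, or 0.123 to 0.538 CPM, and ranked 427 of 583. miR-615 had 0 counts in all 6 libraries. A count of 0 allows up to 3 counts, which is 0.369 CPM in the deepest library and 1.08 in the shallowest. Low levels of miR-615 were thus not detectable at this depth.

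**Figure D1:**
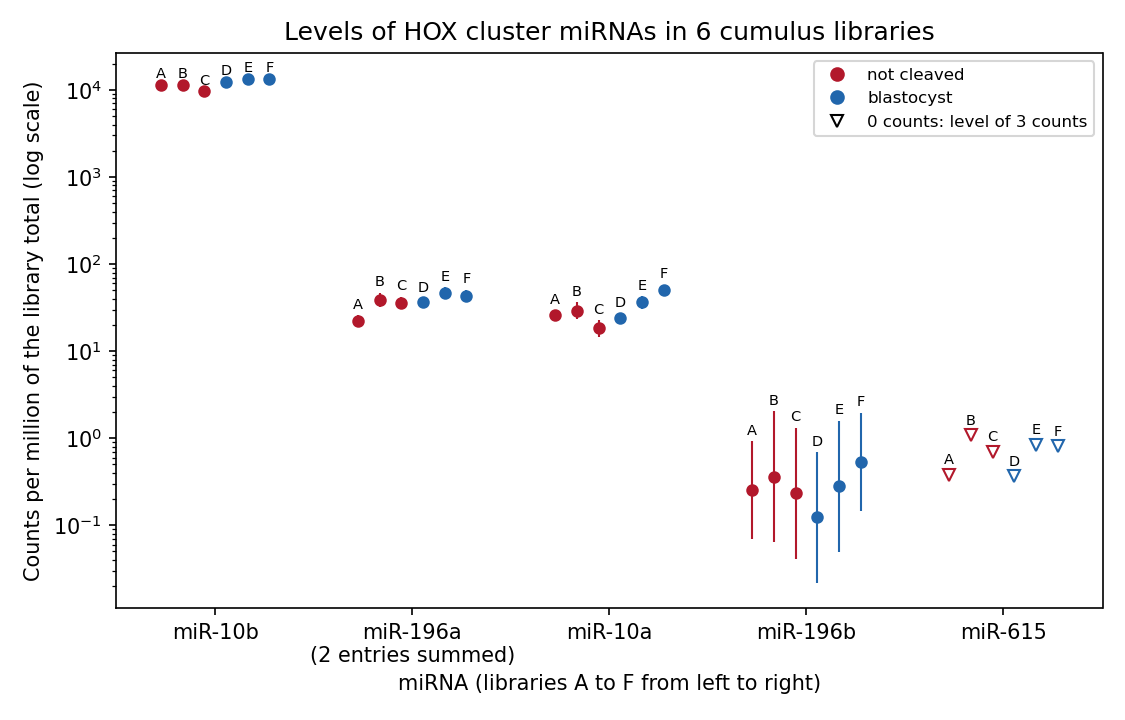
Level of each HOX cluster miRNA in each library, in CPM of the library total on a log axis, with Wilson 95% intervals; open triangles mark the level of 3 counts where a library had 0. miR-10b lies near 12014 CPM in every library, miR-196a and miR-10a lie between 18.2 and 50.3, miR-196b rests on 1 or 2 counts, and miR-615 has none.

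The order of the members was compared within libraries, where it does not depend on scaling. Mature miRNAs are of nearly one length, and counts were compared without a correction for it. The libraries were made by adaptor ligation and PCR. How far these steps favour one sequence over another was not tested, so levels of different miRNAs are compared as counts only. Of the 9 pairs with a member above 3 counts, 8 had the same order in all 6 libraries (two-sided exact sign-flip permutation test, adjusted p = 0.0347 over all 10 pairs of members, from p = 0.031, the smallest that 6 libraries allow). Most of these set a member against miR-196b or miR-615, at or under 3 counts, so their order follows from detection. Between members above 3 counts, one order held for miR-10b over miR-196a and over miR-10a. miR-10b exceeded miR-196a by 8.36 ± 0.342 on the log2 scale and miR-10a by 8.68 ± 0.362 (SD, n = 6), with 0.5 added to each count. As a ratio of counts, miR-10b was 269 to 531 times miR-10a. miR-196a and miR-10a did not separate. miR-196a was higher in 4 libraries and lower in Samples A and F, with a mean log2 ratio of 0.32 ± 0.468 (SD, n = 6, exact p = 0.188). This order turned when the 2 entries of miR-196a were averaged in place of summed. The log2 ratio was then -0.68 (exact p = 0.031), with miR-10a higher in all 6 libraries. Since it is not stated how reads that match both entries were counted, neither order is settled. miR-196b and miR-615 both lay at or under 3 counts, so neither an order nor a fold between them is given.

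The counts of the rarer relative were a small share of each family. miR-10a made up 0.226% of the counts of miR-10a and miR-10b, 0.252% and 0.188% in the not-cleaved Samples A, B and C, and 0.192%, 0.269% and 0.371% in the blastocyst Samples D, E and F. The share in Sample F (Wilson 95% interval 0.321% to 0.428%) lay above the intervals of the other 5 libraries. Sample F is the highest of 6 libraries, and these intervals hold counting error alone. miR-196b made up 0.338% to 1.22% of the counts of miR-196a and miR-196b, on 8 counts in all. How many counts of miR-10a or miR-196b are reads of the more abundant relative was not tested, and their levels are uncertain for that reason.

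The entries of miR-196a carry the same name and miRBase accession, and the file does not say which of them is MIR196A-1 and which MIR196A-2. Under that accession they share the same mature sequence, so a read of it does not tell the precursors apart. How reads that match both entries were counted is not stated. The HOXB and HOXC contributions therefore could not be separated, and the counts by entry below are not the output of each precursor. The first entry had 73 counts, 51 and 71 in the not-cleaved Samples A, B and C, and 119, 74 and 60 in the blastocyst Samples D, E and F, and the second had 101, 57, 83, 176, 93 and 102 in the same order. The second entry was the higher one in all 6 libraries, at 52.8% to 63.0% of both. Its Wilson 95% interval lay above 50% in Samples A, D and F and included 50% in Samples B, C and E. By cluster, the counts over all libraries were 362737 for HOXD (miR-10b), 874 for HOXB (miR-10a), 1060 for HOXB and HOXC together (miR-196a), 8 for HOXA (miR-196b) and 0 for miR-615 of HOXC.

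**Figure D2:**
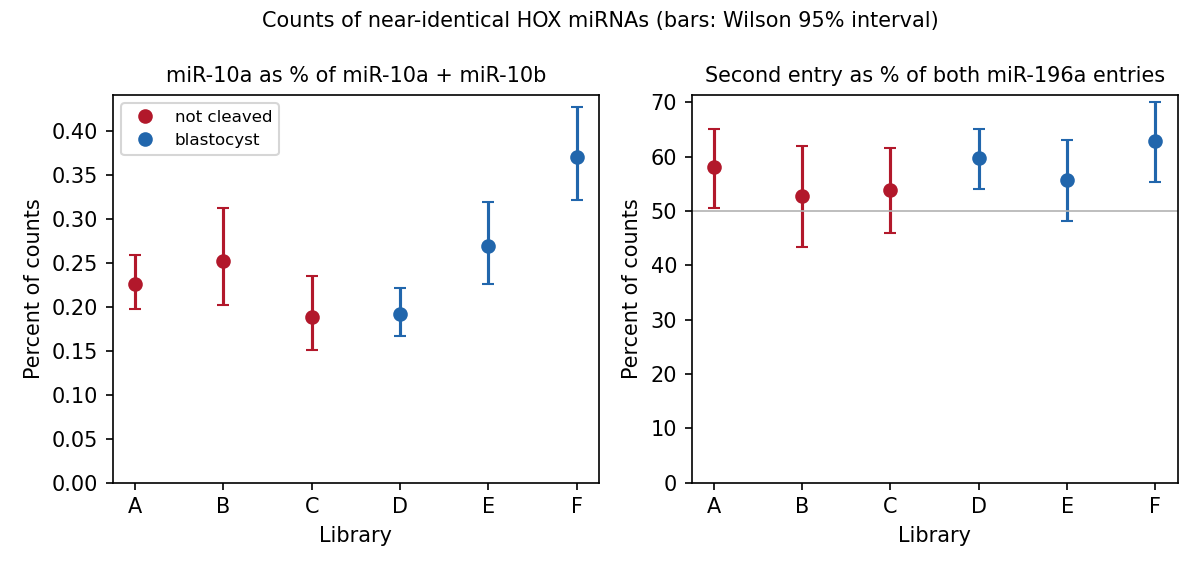
Left, miR-10a as a percent of the counts of miR-10a and miR-10b; right, the second entry of miR-196a as a percent of both entries, with a line at 50%. Points are libraries and bars are Wilson 95% intervals; on the left Sample F (0.371%) lies above the others, and on the right all 6 points lie above 50%.

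Between the fates, all 3 HOX miRNAs that could be tested had higher point estimates in blastocyst samples, and 0 of the 3 passed the adjusted threshold. The test was edgeR's quasi-likelihood test on counts scaled by TMM factors (trimmed mean of M values), and 316 miRNAs passed its expression filter. miR-196b and miR-615 did not pass the filter. Of the 316, 0 (0%) had an adjusted p under 0.05, and 8 (2.53%) had an unadjusted p under 0.05, of which 5 (1.58%) were higher in blastocyst samples. DESeq2 and edgeR's exact test also called 0, each with 4 at an unadjusted p under 0.05.

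For miR-10b, TMM-scaled CPM were 11050, 9857 and 10524 for Samples A, B and C. They were 13063, 13727 and 14075 for Samples D, E and F. Every blastocyst sample thus lay above every not-cleaved sample, which held for 13 (4.11%) of the 316 miRNAs tested, miR-10b included. Not-cleaved samples averaged 10477 ± 598 and blastocyst samples 13622 ± 514 (SD, n = 3), a log2 fold change of 0.38 (SE 0.14) or 1.30-fold, and edgeR's quasi-likelihood test gave an unadjusted p of 0.0300 (adjusted p = 0.991). It had the fourth lowest p of the 316. DESeq2 gave the same log2 fold change of 0.38 (SE 0.29) with an unadjusted p of 0.191. In CPM of the library total the means were 10888 ± 1052 and 13139 ± 610 (SD, n = 3), and the groups did not overlap either (two-sided exact permutation test, p = 0.1, the smallest p that 3 libraries against 3 allow, and adjusted p = 0.4 over the 4 members with counts). On that scale blastocyst samples were higher without overlap for 7 (2.22%) of the 316, miR-10b included. Without Samples B and E the log2 fold change was 0.32 (SE 0.21, adjusted p = 0.992 in edgeR). In CPM of the library total, the summed muscle and epithelial miRNAs given above also did not overlap between the groups. In TMM-scaled CPM, miR-200b of the epithelial list did overlap (140 to 160 in not-cleaved and 109 to 155 in blastocyst samples), while miR-200a and miR-1 did not. The gonadal miR-202 did not overlap either, at 7015 to 8058 and 6269 to 6964, though it did in CPM of the library total. The part of these miRNAs in the difference of miR-10b was not tested.

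For miR-10a, TMM-scaled CPM were 25.1, 24.9 and 19.8 for Samples A, B and C, against 25.2, 37.0 and 52.4 for Samples D, E and F. Sample D was level with Samples A and B, and Samples E and F lay above all not-cleaved samples. Not-cleaved samples averaged 23.3 ± 2.97 and blastocyst samples 38.2 ± 13.6 (SD, n = 3), a log2 fold change of 0.71 (SE 0.35, adjusted p = 0.991 in edgeR's quasi-likelihood test). Without Sample F it was 0.44 (SE 0.34), and without Samples B and E it was 0.77 (SE 0.47). In CPM of the library total, at 24.4 ± 5.62 and 36.9 ± 13.2 (SD, n = 3), the groups overlapped (exact permutation test, p = 0.3), which ended when miR-21-5p was left out of the total, as given below.

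For miR-196a, TMM-scaled CPM were 21.4, 33.2 and 39.2 for Samples A, B and C, against 38.1, 47.9 and 45.4 for Samples D, E and F. The groups overlapped, with Sample C above Sample D. Not-cleaved samples averaged 31.2 ± 9.06 and blastocyst samples 43.8 ± 5.11 (SD, n = 3), a log2 fold change of 0.49 (SE 0.32, adjusted p = 0.991 in edgeR's quasi-likelihood test). Without Sample A it was 0.28 (SE 0.30), and without Samples B and E it was 0.46 (SE 0.43). The entries tested apart gave 0.32 (SE 0.36) for the first and 0.60 (SE 0.31) for the second. In CPM of the library total, at 32.3 ± 8.97 and 42.3 ± 5.50 (SD, n = 3), the exact permutation test gave p = 0.2. The few counts of miR-196b were at 0.283 ± 0.0678 and 0.314 ± 0.209 CPM (SD, n = 3, exact permutation test, p = 0.8).

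**Figure D3:**
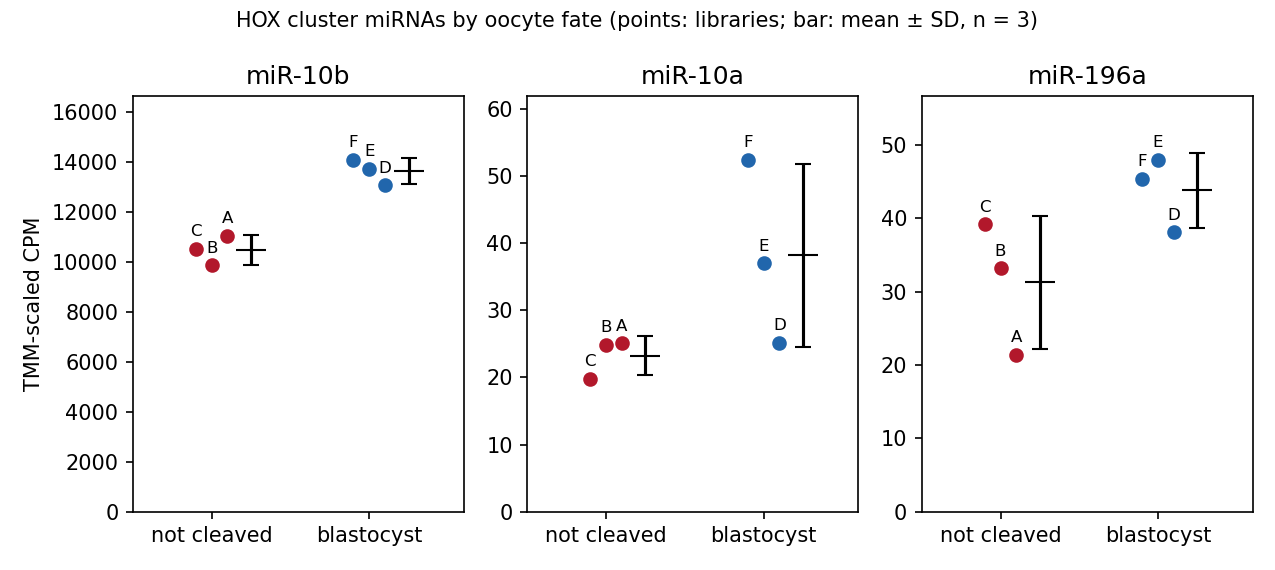
TMM-scaled CPM of miR-10b, miR-10a and miR-196a by oocyte fate, with points for libraries (letters) and bars for the mean and SD of 3 libraries. The blastocyst samples of miR-10b (13063 to 14075) lie above the not-cleaved samples (9857 to 11050), Sample D of miR-10a sits at the level of Samples A and B, and the groups of miR-196a overlap.

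The median log2 fold change of the 3 tested members was 0.49, against -0.02 over all 316, of which 46.8% were above 0. In TMM-scaled CPM the groups did not overlap, with blastocyst samples higher, for 2 of the 3, miR-10b and miR-10a, and for 13 (4.11%) of the 316. For miR-10a this rests on 25.2 in Sample D against 25.1 in Sample A, which are level within counting error. In CPM of the library total this held for miR-10b alone and for 7 (2.22%) of the 316. The total is dominated by miR-21-5p, which took 39.7% to 48.5% of the counts in not-cleaved and 47.7% to 61.5% in blastocyst samples. With miR-21-5p left out of the total, blastocyst samples lay above not-cleaved samples without overlap for all 3, and for 24 (7.62%) of the 315 miRNAs tested besides miR-21-5p, these 3 included. The means were then 20002 ± 1917 and 29366 ± 3310 CPM for miR-10b, 44.6 ± 8.26 and 81.2 ± 26.8 for miR-10a, and 59.0 ± 14.1 and 93.6 ± 3.47 for miR-196a (SD, n = 3, two-sided exact permutation test, p = 0.1 for each, the smallest possible). Whether the groups of miR-10a and miR-196a overlapped thus depended on the scale. The 3 members do not add up to independent evidence, since they come from the same pools and miR-10a and miR-10b are close in sequence. Over 19 other settings, the log2 fold change ran from 0.27 to 0.66 for miR-10b, and from 0.44 to 1.0 for miR-10a. For miR-196a it ran from 0.28 to 0.75. All values were above 0, and above the median of all tested miRNAs in the same setting, by 0.29 to 0.45 for miR-10b, 0.44 to 0.98 for miR-10a and 0.31 to 0.72 for miR-196a. No member had an adjusted p under 0.05 in any of them.

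**Figure D4:**
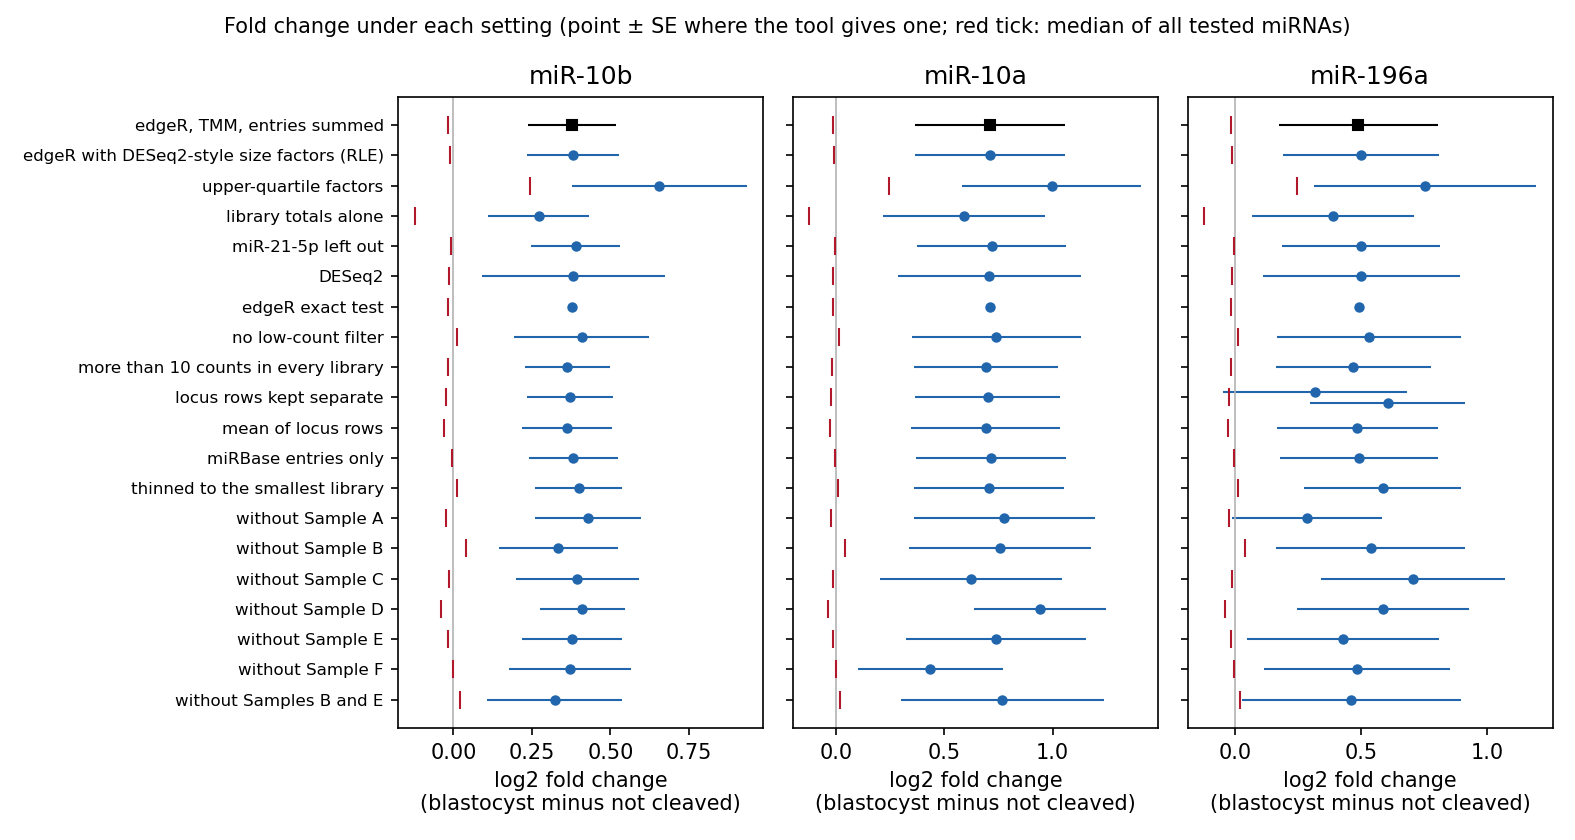
Log2 fold change (blastocyst minus not cleaved) of miR-10b, miR-10a and miR-196a under each setting, as points with the SE where the tool gives one, and the median of all tested miRNAs as a red tick. All points lie to the right of 0 and of the tick, and the upper-quartile setting moves the tick to 0.25.

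The balance of the miR-10 genes was compared by the log2 ratio of miR-10b to miR-10a, which no scaling touches. Not-cleaved samples had a ratio of 8.82 ± 0.214 (SD, n = 3) and blastocyst samples one of 8.54 ± 0.475 (SD, n = 3). The difference of -0.28 was within the spread between libraries, and the groups overlapped (two-sided exact permutation test, p = 0.4). Without Sample F it was -0.04, and without Sample D it was -0.52.

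miR-99a, miR-99b and miR-100 belong to the wider miR-10 family and share much of its sequence, but their genes lie outside the HOX clusters. miR-99a-5p was at 24298 ± 4036 CPM (SD, n = 6), rank 7, and miR-99b at 5971 ± 978, rank 17. miR-100 was at 473.3 ± 66.9 CPM and miR-99a-3p, the other arm, at 4.89 ± 2.39. miR-10b thus lay between miR-99a-5p and miR-99b in level. By fate, miR-99a-5p was at 24927 ± 3346 and 23668 ± 5323 CPM (SD, n = 3), miR-99b at 5582 ± 1095 and 6360 ± 858, and miR-100 at 491.8 ± 94.7 and 454.8 ± 34.7. Of these 4 entries 0 passed an adjusted p of 0.05 in edgeR, with log2 fold changes of 0.01 (SE 0.24) for miR-99a-5p, 0.29 (SE 0.20) for miR-99b, -0.02 (SE 0.22) for miR-100 and -0.05 (SE 0.70) for miR-99a-3p.

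The miRNAs most like miR-10b over the 6 libraries in TMM-scaled log2 CPM, of 227 compared, were miR-381 of the DLK1-DIO3 cluster (Pearson's r = 0.92), miR-365-5p (r = 0.87) and miR-101 (r = 0.86), known in human cells as a repressor of the histone methyltransferase EZH2. Those most like miR-10a were miR-328 (r = 0.85), miR-15a (r = 0.84) and again miR-365-5p (r = 0.83). These are the highest of many correlations over 6 libraries that share scaling factors and group, and no p is given. miR-381 was at 6.76 to 13.6 TMM-scaled CPM in not-cleaved and 15.5 to 19.0 in blastocyst samples. miR-365-5p was at 6.15 to 8.65 and 10.3 to 18.8. miR-101 was at 2022 to 2320 and 2702 to 3473. Of those picked by likeness to miR-10a, miR-328 (103 to 132 and 106 to 174) and miR-15a (38.4 to 51.0 and 49.3 to 62.4) did overlap. For miR-381, miR-365-5p and miR-101, as for miR-10b, the groups did not overlap. The same held, with blastocyst samples higher, for 13 (4.11%) of the 316 tested miRNAs, these included. They were picked by likeness to miR-10b, whose groups lie apart, so this is not separate evidence.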

How the data were processed

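Small RNA libraries of 6 pools of cumulus pieces were sequenced on an Illumina NextSeq instrument, and miRNAs were named by miRBase. The values deposited by the authors are raw counts, one per miRNA entry and library. The sources used here name no genome build, aligner or counting program. A deposited comparison of the groups (fold changes, p-values and group means) was not used. The column names gave the letter and group of each library, but not which sample label it is. The labels do not say whether pools came from separate days, and p-values rest on the spread between the pools alone.

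Entries were summed per mature miRNA. The tests were run with edgeR 4.0.16 (filterByExpr, TMM, quasi-likelihood test, Benjamini-Hochberg adjustment at 0.05) and DESeq2 1.42.0 under R 4.3.3, and with scipy 1.17.1 under Python 3.11.15. Dividing the size of a log2 fold change by the square root of its F gave the SE. A prior count of 2 went into log2 CPM. Single values were compared by exact permutation tests. Named miRNAs are the 5 members, miR-99 and miR-100, the neighbours in level of each member above the floor of 3 counts, and the 3 miRNAs most like miR-10b and miR-10a. Members and lists were chosen with earlier results of these data known. No miRNA sequences were used here.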

Additional observations from a re-analysis of the deposited data

How the results depend on the processing

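The number of HOX miRNAs past the adjusted threshold was 0 under every alternative run: other scaling factors, DESeq2, edgeR's exact test, other filters, entries kept apart or averaged, miRBase entries alone, thinned counts, miR-21-5p left out, each library left out in turn and, chosen after seeing the data, Samples B and E left out together. Over all tested miRNAs the median log2 fold change moved from -0.02 to 0.25 with upper-quartile factors and to -0.12 with library totals alone. Unadjusted p under 0.05 was found in 11 of the 19 alternatives for miR-10b (p from 0.0233 to 0.219) and in 2 for miR-10a. Over all miRNAs, 3 to 17 had such a p in an alternative, with 255 to 583 tested. The alternatives reuse the same libraries, so this tally is not repeated evidence. With miR-21-5p left out of the total the CPM difference between the groups went from 2251 to 9364 for miR-10b, from 12.4 to 36.5 for miR-10a and from 9.93 to 34.7 for miR-196a, partly because the total is smaller, and as a ratio of group means from 1.21 to 1.47 for miR-10b. Averaging the entries of miR-196a gave 20.7 CPM in place of 37.3, by construction, put its log2 ratio to miR-10a at -0.68 and put 9 of the 9 pairs with a member above 3 counts in one order. The difference of miR-196b in CPM, which rests on 8 counts, ran from -0.0805 (without Sample F) to 0.127 (without Sample D) when a library was left out. No paired analysis was possible because the columns carry no replicate numbers shared between the groups. Depth limits miR-196b and miR-615, whose levels lie at or under 3 counts in every library.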
